A study of Mus musculus with 8 samples.

Results

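The nuclear genes of oxidative phosphorylation were followed through 4 groups of mouse embryos at the late 2-cell stage. The genes were chosen by symbol: every array row annotated to a single gene named Nduf, Uqcr, Cox4 to Cox8 or Atp5, together with the 4 succinate dehydrogenase genes, Cyc1 and Cycs, without pseudogenes and with 1 row per gene. This gave 93 of the 30700 genes tested, made up of 35 genes of complex I, 4 of complex II, 9 of complex III, 20 of complex IV, 16 of ATP synthase (complex V), 8 Ndufaf assembly factors of complex I and cytochrome c (Cycs). Other genes under the rule were not analysed here.

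RNA was measured on 8 Affymetrix arrays, each loaded with RNA from a pool of 100 embryos of B6C3F1 x CD1 matings after hormonal stimulation, and each group had 2 pools. Zygotes were left non-manipulated, injected with Trim21 mRNA, injected with Trim21 mRNA and an antibody against COPS3 (the full treatment), or injected with the antibody alone, and were cultured for 28 h, although the age label gives 24 h in culture. TRIM21 is a ubiquitin ligase that carries antibody-bound protein to the proteasome, and COPS3 belongs to the COP9 signalosome, a complex that acts on cullin ubiquitin ligases. The comparisons ask what follows for these RNAs when the COPS3 protein is targeted in the zygote. Per the labels, 2-cell formation was normal in the first 2 groups and stunted, with many undivided zygotes, in both groups that received the antibody. No group received a control antibody. Each group was treated on a day of its own and both its pools came from that day, so group and day cannot be told apart, and the p-values measure only the spread between pools of a day. In pooled embryos, less RNA per embryo and a different mix of divided and undivided embryos also cannot be told apart.

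Oxidative phosphorylation passes electrons from NADH through complex I, or from succinate through complex II, to ubiquinone, then through complex III, cytochrome c and complex IV to oxygen. The protons pumped on the way drive ATP synthase. Most subunits are encoded in the nucleus and imported, while a small core set is encoded by the mitochondrial genome. Early mouse embryos rely on mitochondria inherited from the oocyte and use pyruvate as a main fuel.

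Array values are log2 levels, so a difference of −1 means a halved signal. Trim21 RNA matched the labels: the 4 pools that received it read 9.77 to 10.40 and the other 4 read 5.65 to 6.76. Cops3 RNA lay between 8.85 and 10.0 over the 8 pools and checks nothing, since the method acts on protein. The highest member read 15.89, below the maxima of 18.88 to 19.66 at which the arrays stopped. The summed level of 12 markers of the 2-cell embryo was 14.09 to 14.47 in the pools without antibody, 15.08 to 15.35 with antibody alone and 15.90 to 16.12 in the full treatment. That of 12 oocyte and zygote markers was 17.66 to 18.21, 19.39 to 19.60 and 18.28 to 18.82 in the same order. That of 11 cumulus and granulosa markers was 9.07 to 11.52 without antibody, 10.49 to 11.20 with antibody alone and 8.85 to 8.87 in the full treatment. That of 5 oviduct epithelium markers was 10.79 to 10.92, 10.45 to 10.86 and 8.90 to 9.20 in this order, lower in the full treatment as the members were. Of the 5 Epcam was called in the full treatment against Trim21 mRNA (−2.34), and Ovgp1, which defines the oviduct, read 6.13 to 7.09 over the 8 pools. The sums lay between 8.25 and 8.70 for 9 sperm markers and between 6.88 and 7.21 for 4 blood markers. Their part in the differences given here was not tested.

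In the full treatment the RNAs of the respiratory chain and ATP synthase were broadly lower than in embryos given Trim21 mRNA alone. Of the 93 genes 50 fell and none rose in limma's test (a gene is called at an adjusted p under 0.05), and 42 of the 50 fell at least 2-fold. The median difference of the 93 was −1.07, with a range of −3.54 to 0.64, while the median of all genes tested was 0.21. Of all genes 14.5% were called lower, 8.72% higher and 23.2% in either direction. The fall of the 93 genes has to be read against the level of expression, since highly expressed genes were called lower far more often than weak ones. Among genes with a mean log2 level of at least 6, 33.3% were called lower, against 49 of the 84 members at that level (58.3%). Below 6 the shares were 1 of 9 members (11.1%) and 1.15% of all genes. Between levels of 6 and 8 the shares were 42.1% of 38 members and 20.9% of all genes. Between 8 and 10 they were 70.8% of 24 members and 39.1% of all genes, and from 10 upwards 72.7% of 22 members and 49.5% of all genes. In 80 of the 93 genes both full treatment pools lay below both Trim21 mRNA pools, an ordering met by 26.5% of all genes and 53.2% of those with a level of at least 6.

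**Figure D1:**
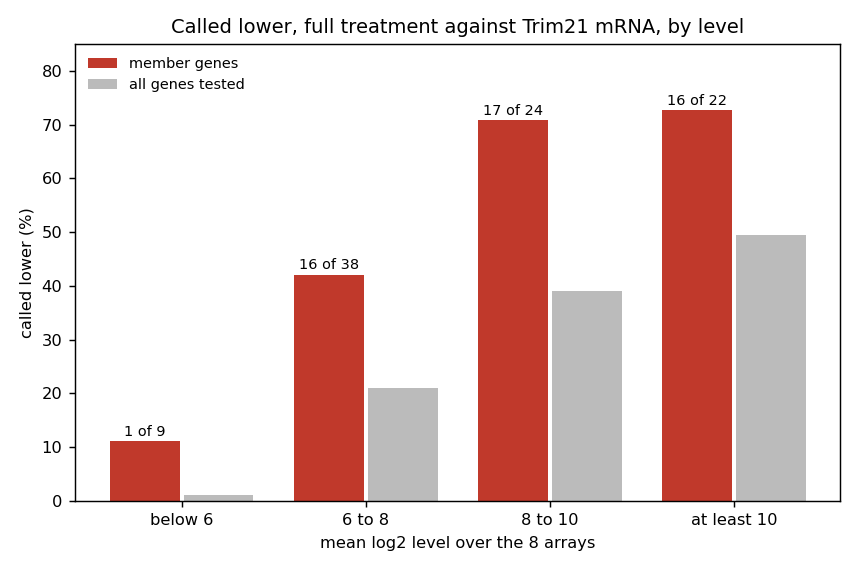
Share of genes called lower in the full treatment against Trim21 mRNA (vertical axis, percent) in 4 bands of mean log2 level over the 8 arrays, for the member genes (red) and all genes tested (grey). Both shares rise with level, and the share of members is higher in each band, at 72.7% against 49.5% in the highest.

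The size of this fall depended on how the arrays were scaled. Quantile normalization and cyclic loess, which give the arrays a like distribution and move the median of all genes from 0.21 to 0.02 and 0.01, brought the members' median to −0.66 each. The calls then split into 33 lower and 5 higher, with Ndufaf2 at 1.21, Ndufa10 at 1.18, Atp5g2 at 0.84, Atp5l at 0.79 and Cox6b2 at 0.67 under quantile normalization. All genes split into 3708 lower and 3490 higher there, against 4448 and 2677 in the values as deposited. By complex the medians of complexes I to V were −0.87, −0.54, −1.51, −0.79 and −1.37 as deposited, −0.68, −0.32, −1.01, −0.36 and −0.80 after quantile normalization and −0.66, −0.26, −0.95, −0.34 and −0.80 after cyclic loess, so complex III was lowest under each. The complex IV value in these lists of medians by complex, here and below, includes its 8 tissue isoforms. As deposited, the median of these isoforms lay well above that of the ubiquitous complex IV genes. The place of complex IV among the complexes therefore depends on the isoforms. Centring each array on its median gave −1.28 over all members and 57 lower calls. The count also moved with single arrays: 30 members were called without either Trim21 mRNA pool and 32 without replicate 1 of the full treatment. Without antibody alone replicate 1 or replicate 2, 68 were called lower and 3 higher (Ndufaf2 0.48, Ndufa10 0.40 and Cox8b 0.64). Of the 50 called members 29 kept the call in each of the 8 fits that left out 1 array.

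**Figure D2:**
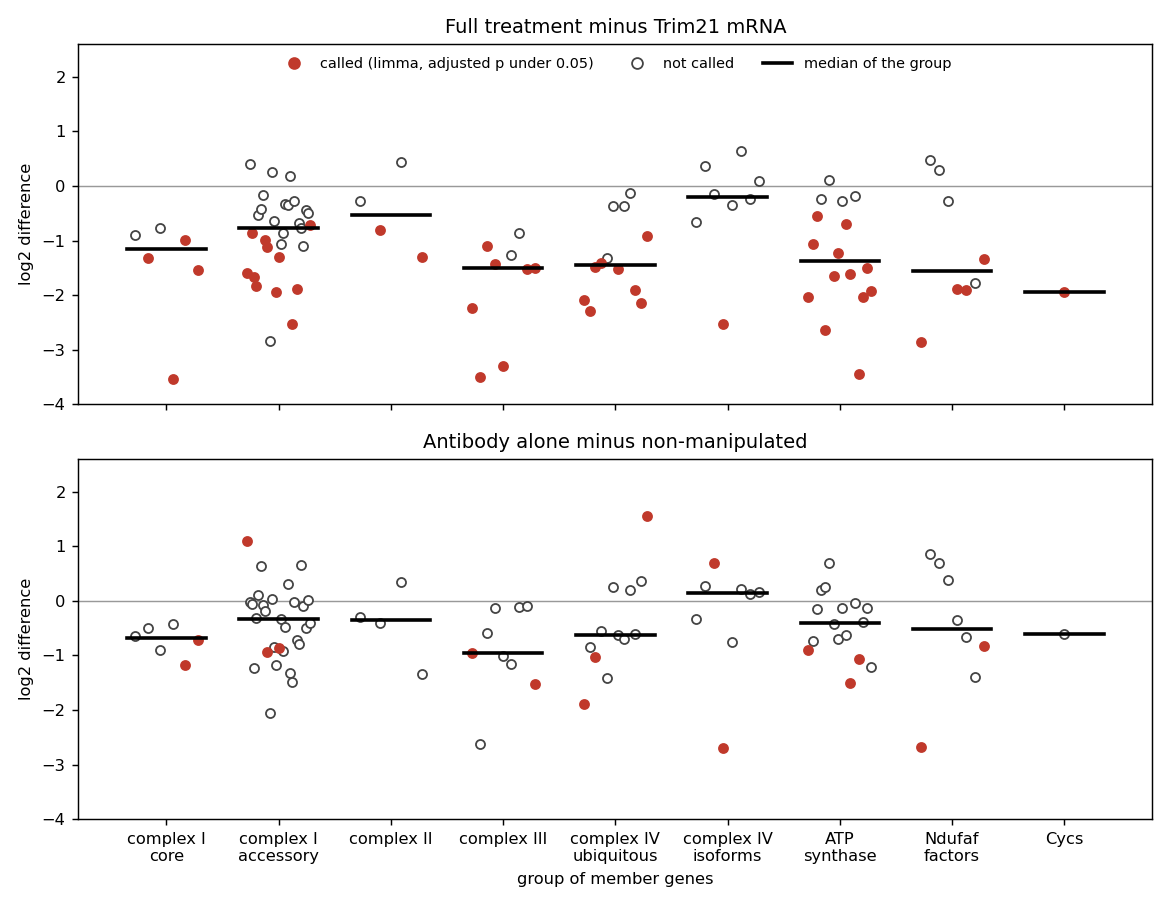
Log2 difference of each member gene (points) by complex, for the full treatment minus Trim21 mRNA (top) and antibody alone minus non-manipulated (bottom), with called genes in red and group medians as black bars. The 12 ubiquitous complex IV genes include the supercomplex factor Cox7a2l. In the top panel the lowest medians are those of Cycs, the Ndufaf factors, complex III, the ubiquitous complex IV genes and ATP synthase. The 8 tissue isoforms of complex IV mostly lie near 0.

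Promoters of respiratory genes are known for sites of NRF1, of ETS factors such as GABP and of YY1. Windows from 250 bases before to 50 after the RefSeq start (GRCm38.p6) were available for 75 of the 93 genes. Each motif was searched on both strands. The NRF1 motif, the palindrome of 10 letters in capitals in the first 6 stretches, occurred in 6 of the 75 windows (8%), against 1.07% of all 27025 genes in the table, and the YY1 motif, the 10 letters in capitals in the Ndufaf8 stretch, in 6 (8%) against 0.995%. The ETS motif CCGGAAGT occurred in 5 (6.67%) against 4.31%, the SP1 motif GGGGCGGGG in 12 (16%) against 12.9% and the TATA motif TATAAA in 8 (10.7%) against 15.7%. By this exact match NRF1 motifs lay in the windows of Uqcrc1, Cox6a1, Atp5k and Ndufaf5, which were called lower in the full treatment, and of Ndufaf4 and Atp5g2, which were not. The array row used for Atp5g2 lies on chromosome 7, while the gene and its window lie on chromosome 15. On the row of its own chromosome Atp5g2 was not called either. All 5 genes with the ETS motif (Ndufs3, Uqcrh, Uqcr11, Cox8a and Atp5h) were called lower, as were 41 of the 75 genes with a window. Of the 6 with the YY1 motif, Ndufaf8 was called lower and Ndufa9, Ndufs4, Ndufs6, Ndufs7 and Atp5j were not. The stretches around the 6 NRF1 motifs are shown so that called and uncalled genes can be set side by side, with the motif in capitals and the gene's own strand printed 5′ to 3′.
Uqcrc1, chr9:108936668-108936697, + strand: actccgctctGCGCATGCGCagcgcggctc
Cox6a1, chr5:115349081-115349150, − strand: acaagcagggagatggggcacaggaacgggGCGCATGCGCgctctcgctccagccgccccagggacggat
Atp5k, chr5:108434410-108434479, − strand: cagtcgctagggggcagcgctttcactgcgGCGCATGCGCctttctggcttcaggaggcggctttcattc
Ndufaf5, chr2:140170652-140170681, + strand: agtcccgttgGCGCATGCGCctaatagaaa
Ndufaf4, chr4:24897940-24898009, + strand: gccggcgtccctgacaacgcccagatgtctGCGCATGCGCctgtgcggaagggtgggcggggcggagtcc
Atp5g2, chr15:102671050-102671119, − strand: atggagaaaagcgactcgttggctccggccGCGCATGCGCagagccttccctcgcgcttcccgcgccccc
In Cox6a1, Ndufaf4, Atp5k and Atp5g2 the motif began 162, 113, 50 and 42 bases before the start, and in Uqcrc1 and Ndufaf5 it lay just after the start. The flanks differ between the genes, and the shared letters do not separate the genes called from those not called.
Examples of the ETS motif, in capitals as it stands on the printed strand, come from 3 genes that fell.
Uqcr11, chr10:80406850-80406917, − strand: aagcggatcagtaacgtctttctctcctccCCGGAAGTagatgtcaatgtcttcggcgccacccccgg
Atp5h, chr11:115419921-115419988, − strand: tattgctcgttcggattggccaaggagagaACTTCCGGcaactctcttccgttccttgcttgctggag
Uqcrh, chr4:116075071-116075111, − strand: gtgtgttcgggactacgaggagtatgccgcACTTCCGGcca
Atp5h and Uqcrh carry the motif on the opposite strand. The YY1 motif of Ndufaf8 lies just after its start.
Ndufaf8, chr11:120098934-120098963, + strand: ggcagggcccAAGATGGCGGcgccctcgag
A match describes these windows only, and binding was not measured.

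Complex I takes electrons from NADH. Its core subunits hold the flavin and the iron-sulfur clusters, and its accessory subunits surround them. Of the 6 nuclear core genes with a row 4 fell in the full treatment against Trim21 mRNA (median −1.15), and of the 29 accessory genes 11 fell (median −0.77). The counts by complex, here and below, stand beside 14.5% of all genes called lower. By level this share was 20.9% between 6 and 8, 39.1% between 8 and 10 and 49.5% from 10 upwards. Whether a complex differed from other genes of like level was not tested. Ndufs8, which encodes an iron-sulfur subunit next to the ubiquinone site, had the largest fall of all 93 genes. It read 11.16 and 11.17 in the Trim21 mRNA pools and 7.56 and 7.68 in the full treatment, while the non-manipulated pools read 11.33 each and the antibody alone pools 11.03 and 10.78. Only the full treatment pools stood apart, by more than 3 log2 units from every other pool. The difference was −3.54 ± 0.15 (SE, limma adjusted p = 6.5e-05).

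Ndufv1, the subunit that binds NADH and flavin, read 7.84 and 7.93 with Trim21 mRNA against 6.81 and 7.0 in the full treatment, a difference of −0.98 ± 0.15 (SE, limma adjusted p = 0.0037). Its antibody alone pools, at 6.83 and 6.81, were as low as those of the full treatment. Ndufv2, its iron-sulfur partner, read 9.14 in both Trim21 mRNA pools and 7.59 and 7.60 in the full treatment, with the antibody alone pools between them at 8.28 and 8.56. The groups did not overlap in either gene, which was a condition for naming them. Ndufs3 also fell (−1.32 ± 0.23), but not without Trim21 mRNA replicate 1 (−1.12 to −1.53 over the fits that left out 1 array), and Ndufs1 at −0.90 and Ndufs7 at −0.77 were not called.

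Among the accessory genes Ndufb7 had the largest called fall, from 7.48 and 7.39 to 4.97 and 4.84 (−2.53 ± 0.41). Ndufb9 went from 8.28 and 8.54 to 6.53 and 6.54 (−1.88 ± 0.28, limma adjusted p = 0.0034) and Ndufa1, a small membrane subunit, from 12.23 and 12.17 to 10.97 and 10.24 (−1.59 ± 0.24, limma adjusted p = 0.0038). None of these 3 overlapped between the groups, which was a condition for naming Ndufb9 and Ndufa1. The others that kept a call without each array were Ndufb2 (−1.30) together with the core genes Ndufs8, Ndufv1 and Ndufv2. The calls of Ndufa2, Ndufa7, Ndufa8, Ndufa12, Ndufa13, Ndufb11 and Ndufv3 (−1.95 to −0.72) were lost without at least 1 of the Trim21 mRNA pools, those of Ndufa2, Ndufa12, Ndufa13, Ndufb11 and Ndufv3 also without replicate 1 of the full treatment, and those of Ndufa2, Ndufa13, Ndufb11 and Ndufv3 without its replicate 2. Ndufa2, Ndufa12, Ndufa13 and Ndufv3 lost the call without either non-manipulated pool too. The accessory genes were uneven: Ndufa6 at −0.16 and Ndufb8 at −0.28 were not called, and Ndufa10 at 0.40, Ndufab1 (the acyl carrier protein) at 0.26 and Ndufb6 at 0.18 lay above 0. Ndufa9, at −2.83 ± 1.12, was not called either. Its antibody alone pools read 6.79 and 10.89, and the fit uses 1 spread for all groups.

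Complex II (succinate dehydrogenase) is encoded in the nucleus throughout. Its 4 genes differed among themselves. Sdhb, the iron-sulfur subunit, read 7.56 and 7.73 with Trim21 mRNA against 6.92 and 6.74 in the full treatment (−0.81 ± 0.21, limma adjusted p = 0.032). Sdhd, a membrane anchor, read 6.2 and 6.16 against 5.02 and 4.73 (−1.30 ± 0.33, limma adjusted p = 0.031). Both fell without overlap between the groups, and both calls were lost without any 1 pool of the Trim21 mRNA, full treatment or non-manipulated groups. Sdha, the flavoprotein, was not called at −0.27 ± 0.29, with 7.04 and 6.95 against 6.87 and 6.57. Sdhc, the other anchor, lay higher in the full treatment at 6.42 and 6.01 against 5.90 and 5.68 (0.43 ± 0.36, not called).

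Complex III passes electrons from ubiquinol to cytochrome c. Of its 9 genes 7 fell (median −1.51), beside 33.3% of all genes with a level of at least 6. Cyc1, which encodes cytochrome c1, read 9.88 and 10.02 with Trim21 mRNA against 7.71 and 7.74 in the full treatment, a difference of −2.23 ± 0.16 (SE, limma adjusted p = 0.00015). Uqcrc1, a core protein, read 9.91 and 10.04 against 6.59 and 6.77, a difference of −3.29 ± 0.29 (SE, limma adjusted p = 0.00038). Uqcrb, at the ubiquinone site, read 8.65 and 8.60 against 7.08 and 7.31 (−1.43 ± 0.19, limma adjusted p = 0.002). In these 3 genes, named on condition that the groups did not overlap, the call held without each array.

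Uqcr10, a small membrane subunit, had a fall of −3.50 ± 0.75, from 9.11 and 9.66 to 5.87 and 5.90. Its antibody alone pools, at 5.98 and 8.65, were the ones that disagreed, and its call was lost without any 1 pool of the Trim21 mRNA or full treatment groups. Uqcr11 (−1.10), Uqcrh (−1.52) and Uqcrq (−1.51) were called too, but not without either Trim21 mRNA pool or replicate 1 of the full treatment. Uqcrq was the 1 member of this complex with higher Trim21 mRNA than non-manipulated pools by over 0.5, at 13.99 and 14.32 against 13.27 and 13.19. The Rieske protein gene Uqcrfs1 lay nearest to 0 at −0.87 ± 0.26 and was not called, nor was Uqcrc2 at −1.26 ± 0.44.

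Cytochrome c carries electrons from complex III to complex IV and also takes part in cell death. Cycs read 14.16 and 14.27 with Trim21 mRNA against 12.62 and 11.92 in the full treatment, a difference of −1.95 ± 0.25 (SE, limma adjusted p = 0.0018) with no overlap. The non-manipulated pools read 14.06 and 14.04 and the antibody alone pools 13.60 and 13.31. The array row with the highest level for this gene lies on another chromosome than Cycs in RefSeq and which locus it reads was not tested. On the row of the gene's own chromosome the levels were 10.79 and 10.93 against 9.59 and 9.41, a difference of −1.36 with a limma adjusted p of 0.016.

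Complex IV (cytochrome c oxidase) reduces oxygen. Of its 11 ubiquitous nuclear genes 8 fell (median −1.48), beside 33.3% of all genes with a level of at least 6. Cox8a, the smallest of these subunits, read 14.06 and 13.79 with Trim21 mRNA, 14.54 and 14.88 with antibody alone and 12.07 and 11.50 in the full treatment. The full treatment pools were the lowest and the antibody alone pools the highest of the 8, and the full treatment differed from Trim21 mRNA by −2.14 ± 0.24 (SE, limma adjusted p = 0.0011). Cox7c read 8.36 and 8.34 against 6.35 and 6.56 (−1.90 ± 0.21, limma adjusted p = 0.00095). Cox6a1 read 13.00 and 12.97 against 11.43 and 11.73 (−1.41 ± 0.18, limma adjusted p = 0.0018). Cox5a (−2.28), Cox4i1 (−2.08) and Cox5b (−1.48) fell as well, and these 6 calls held without each array. Those of Cox7a2 (−1.52) and Ndufa4 (−0.92), which was first assigned to complex I, were lost without any 1 pool of the Trim21 mRNA or full treatment groups, and that of Ndufa4 also without either non-manipulated pool. Cox6c at −0.36, Cox7b at −0.13 and Cox6b1 at −1.31 ± 0.76 were not called. Cox7a2l, a factor that joins complexes III and IV into supercomplexes, was not called at −0.36 ± 0.21.

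Several complex IV subunits have isoforms known from heart and muscle, testis or hypoxic tissue. Of the 8 isoform genes 1 fell and 7 were not called (median −0.20). Cox7a1, known from heart and muscle, read 10.05 and 9.80 with Trim21 mRNA against 7.16 and 7.65 in the full treatment, a difference of −2.52 ± 0.58 (SE, limma adjusted p = 0.022). Its non-manipulated pools were at 9.68 and 9.53 and its antibody alone pools at 5.91 and 7.92, so every pool with antibody lay below every pool without. The call was lost without any 1 pool of the Trim21 mRNA or full treatment groups. The testis isoform Cox6b2 stayed between 10.44 and 10.66 in the 6 pools of the other groups and read 11.19 and 11.32 with antibody alone. Its difference in the full treatment was −0.15 ± 0.15 in the values as deposited, and 0.67 and 0.63 (both called) after quantile normalization and cyclic loess.

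The other isoforms differed in both directions. Cox4i2, known from lung and hypoxia, differed by −0.66 ± 0.21, the testis isoforms Cox7b2 and Cox8c by −0.34 ± 0.20 and −0.24 ± 0.17, and the muscle isoforms Cox6a2 and Cox8b by 0.37 ± 0.46 and 0.64 ± 0.20. Ndufa4l2, an isoform induced in hypoxia, read 3.94 to 4.24 in all 8 pools and differed by 0.09 ± 0.14. None of these 6 was called. Beside their ubiquitous counterparts the isoforms showed no single pattern. Cox4i1, Cox6a1 and Cox8a fell and Cox4i2, Cox6a2, Cox8b and Cox8c were not called, Cox7a1 and Cox7a2 both fell, and neither gene was called in the pairs Cox6b1 and Cox6b2 (−1.31 and −0.15) and Cox7b and Cox7b2 (−0.13 and −0.34). Level differed within these pairs too. Cox4i2, Cox6a2, Cox8b and Cox8c had mean levels of 6.44, 6.25, 4.14 and 6.61, against 9.59, 12.6 and 13.7 for Cox4i1, Cox6a1 and Cox8a. Weak genes were called lower far less often than highly expressed ones, so level and isoform cannot be told apart here. Differences between the genes of a pair were not tested.

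ATP synthase makes ATP from the proton gradient with a catalytic F1 head, a rotating ring of c subunits and a peripheral stalk. Of its 16 genes 12 fell (median −1.37), beside 33.3% of all genes with a level of at least 6. In the head, Atp5a1 (alpha) read 11.41 and 11.28 with Trim21 mRNA against 9.36 and 9.27 in the full treatment, a difference of −2.03 ± 0.16 (SE, limma adjusted p = 0.00024). Atp5b (beta) fell from 11.41 and 11.33 to 10.31 and 10.28 (−1.07 ± 0.26), Atp5d (delta) differed by −0.55 ± 0.15 and Atp5e (epsilon) by −0.24 ± 0.29, which was not called. The calls of Atp5b and Atp5d, and of the membrane subunit Atp5j2 (−0.70), were lost without any 1 pool of the Trim21 mRNA, full treatment or non-manipulated groups.

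The 3 genes for the c subunit, known to encode the same mature protein, gave unlike values. Atp5g1 read 9.22 and 8.99 with Trim21 mRNA against 6.6 and 6.35 in the full treatment (−2.63 ± 0.16, limma adjusted p = 0.00011), while the antibody alone pools, at 9.92 and 9.89, were above the non-manipulated ones at 9.62 and 9.68. Atp5g3 read 9.31 and 9.28 against 7.74 and 7.57 (−1.64 ± 0.18, limma adjusted p = 0.00092). Atp5g2, nearest to 0 in the complex, read 9.41 and 9.17 against 9.60 and 9.20 (0.11 ± 0.27, limma adjusted p = 0.78), and the groups overlapped. Its highest row lies on another chromosome than the gene, and on the own-chromosome row the difference was −0.40 with a limma adjusted p of 0.22. After quantile normalization Atp5g2 was called higher at 0.84.

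Among the stalk genes Atp5pb (−1.92), Atp5o (−1.51) and Atp5h (−1.23) fell and Atp5j (−0.28) was not called. Atp5pb lost its call without any 1 pool of the Trim21 mRNA or full treatment groups. Among the small membrane subunits, Atp5md read 15.62 and 15.75 with Trim21 mRNA against 12.47 and 12.00 in the full treatment, a difference of −3.45 ± 0.22 (SE, limma adjusted p = 0.00012). Atp5md helps hold ATP synthase dimers together. Atp5mpl (−2.04) and Atp5k (−1.61) fell as well, and Atp5l, again read on another chromosome than its own, stayed between 12.44 and 12.81 in all 8 pools (−0.19 ± 0.14).

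Of the 8 Ndufaf genes, which assemble complex I and are not part of it, 4 fell (median −1.56). Of all genes with a level of at least 6, 33.3% were called lower. Each of the 4 calls held without each array. Ndufaf5, which modifies a core subunit during assembly, read 8.22 and 8.01 with Trim21 mRNA against 6.31 and 6.16 in the full treatment (−1.88 ± 0.15, limma adjusted p = 0.00027). Ndufaf1 went from 8.68 and 8.40 to 5.38 and 6.01 (−2.85 ± 0.37, limma adjusted p = 0.002), and Ndufaf8 from 10.31 and 10.50 to 9.04 and 9.10 (−1.33 ± 0.16, limma adjusted p = 0.0015). These 3 were named on condition that the groups did not overlap. Ndufaf6 fell too (−1.90), whereas Ndufaf4 (−0.28), Ndufaf7 (−1.78 ± 0.62), Ndufaf2 (0.48) and Ndufaf3 (0.29) were not called.

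**Figure D3:**
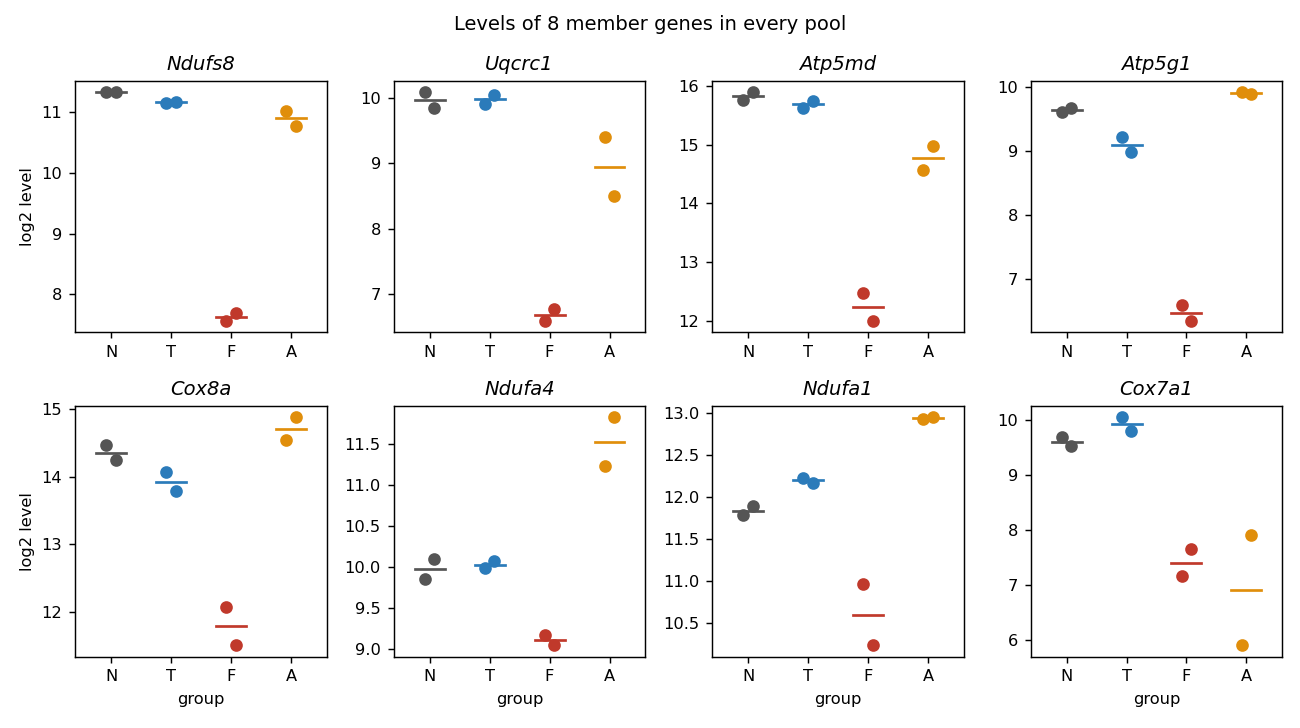
Log2 level of 8 member genes in each pool (points) with group means (lines), for non-manipulated (N), Trim21 mRNA (T), full treatment (F) and antibody alone (A), each panel with its own vertical axis that does not start at 0. Ndufs8, Atp5g1 and Cox8a were low in the full treatment pools only, Ndufa4 and Ndufa1 were high with antibody alone, and Cox7a1 was low in all 4 pools with antibody.

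Fewer of these genes were called lower with the antibody alone. Against non-manipulated embryos 14 members fell and 3 rose in limma's test, beside 10% of all genes called in either direction, 7.29% lower and 2.76% higher. Among genes with a level of at least 6, 16.7% were called lower, and 14 of the 84 members at that level were too, so the members' share was near the background. The median difference was −0.48, against 0.18 over all genes, and −0.23 and −0.24 after quantile normalization and cyclic loess, where 5 and 7 members were called lower and 3 and 5 higher. The medians of complexes I to V were −0.48, −0.34, −0.96, −0.44 and −0.40 as deposited and −0.24, −0.10, −0.63, −0.20 and −0.09 after quantile normalization. All 3 risers are members of complexes I and IV. Ndufa4 read 9.85 and 10.10 in non-manipulated pools and 11.23 and 11.83 with antibody alone (1.55 ± 0.23, limma adjusted p = 0.01). Ndufa1 read 11.79 and 11.89 against 12.93 and 12.95 (1.10 ± 0.24, limma adjusted p = 0.035). Cox6b2 differed by 0.70 ± 0.15 (limma adjusted p = 0.029), and none of the 3 overlapped.

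The falls with antibody alone lay in complexes I, III, IV and V and among the assembly factors. Their share was near the 16.7% called lower among all genes with a level of at least 6. In complex I they were Ndufv1 (from 8.01 and 7.97 to 6.83 and 6.81, −1.17 ± 0.15, limma adjusted p = 0.0068), Ndufa8 (−0.93), Ndufb2 (−0.87) and Ndufv2 (−0.71). In complex III they were Uqcrq (−1.53 ± 0.31) and Cyc1, which read 9.82 and 9.62 against 8.83 and 8.68 (−0.96 ± 0.16, limma adjusted p = 0.014). In complex IV they were Cox7a1 (−2.69 ± 0.58), Cox4i1, which read 10.36 and 10.33 against 8.01 and 8.92 (−1.88 ± 0.32, limma adjusted p = 0.017), and Cox5b (−1.02). In ATP synthase they were Atp5k (from 9.76 and 9.44 to 7.82 and 8.38, −1.50 ± 0.22), Atp5md (−1.06) and Atp5a1 (−0.90). Of the assembly factors Ndufaf1 went from 9.02 and 8.84 to 5.72 and 6.78 (−2.68 ± 0.37, limma adjusted p = 0.0088), and Ndufaf8 differed by −0.83.

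No complex II gene was called with antibody alone. Sdhd differed by −1.34 ± 0.33 (limma adjusted p = 0.051), Sdhb by −0.40 ± 0.21, Sdha by −0.29 ± 0.29 and Sdhc by 0.35 ± 0.36. Cycs differed by −0.60 ± 0.25 and was not called. This is again the row on another chromosome. The row of the gene's own chromosome read 10.97 and 10.81 in non-manipulated pools and 9.44 and 10.35 with antibody alone, a larger difference. Nearest to 0 were Ndufs6 in complex I at 0.01, Uqcrh in complex III at −0.09, Cox8c in complex IV at 0.13, Atp5l at −0.04 and Ndufaf5 at −0.36. The isoforms Cox7b2 (−0.75), Cox4i2 (−0.33), Cox6a2 (0.27), Cox8b (0.21) and Ndufa4l2 (0.17) were not called. All of these counts are fragile: 0 members were called without either non-manipulated pool, 6 without either Trim21 mRNA pool, 27 without antibody alone replicate 1 and 57 (50 lower, 7 higher) without its replicate 2. None of the 17 calls held in every fit that left out 1 array.

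The 2 antibody alone pools disagreed on these genes more than any other pair. Of the 93 genes 21 (22.6%) differed over 2-fold between them, each lower in replicate 1, against 15% of all genes. The 15% is not matched for level: 17974 of the 30700 genes lie below 6, against 9 of the 93 members. In the non-manipulated, Trim21 mRNA and full treatment groups 0, 0 and 1 of the 93 did. The median of replicate 1 minus replicate 2 was −0.40 over the 93 genes and 0.18 over all genes. Ndufa9 was the furthest apart, at 6.79 and 10.89. Relative to the non-manipulated mean, the members' median was −0.66 in antibody alone replicate 1 and −0.26 in replicate 2, against −0.13 and −0.08 with Trim21 mRNA and −1.21 and −1.11 in the full treatment. Both antibody alone medians thus lay between those of the Trim21 mRNA and the full treatment pools.

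**Figure D4:**
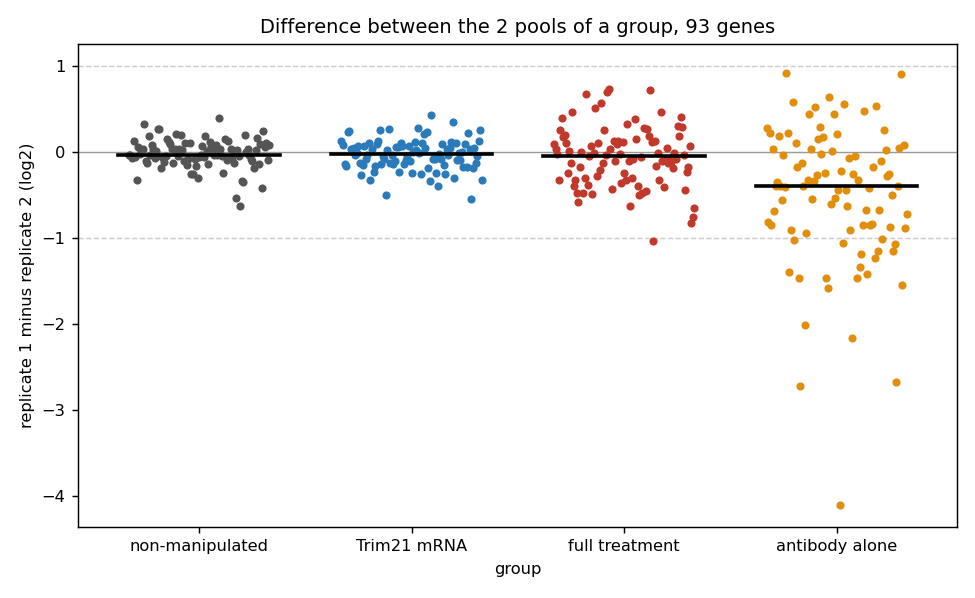
Difference in log2 level between replicate 1 and replicate 2 of each group for the 93 genes (points), with the median (black bar) and dashed lines at 2-fold. The antibody alone group stands apart, with 21 genes over 2-fold lower in replicate 1 and a median of −0.40.

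The test of whether the antibody difference itself changed with Trim21 mRNA is the interaction, the difference of the full treatment from Trim21 mRNA minus that of antibody alone from non-manipulated embryos. It was called for 12 of the 93 genes, all negative, beside 3.46% of all genes called negative and 8.24% of those with a level of at least 6. The members' median was −0.51. The largest values were those of Ndufs8 (−3.12 ± 0.22, limma adjusted p = 0.0029) and Atp5g1 (−2.88 ± 0.23, limma adjusted p = 0.0036), the 2 genes whose call held without each array. Ndufa1 (−2.69 ± 0.34), Cox8a (−2.50 ± 0.34) and Ndufa4 (−2.48 ± 0.32) followed, all with higher antibody alone pools than non-manipulated ones and lower full treatment pools than Trim21 mRNA ones.

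Atp5md (−2.39 ± 0.31), Uqcrc1 (−2.28 ± 0.42), Ndufaf5 (−1.51 ± 0.22), Atp5o (−1.37 ± 0.25), Uqcrb (−1.28 ± 0.27), Cyc1 (−1.26 ± 0.22) and Atp5a1 (−1.13 ± 0.23) completed the 12, with limma adjusted p of 0.012 to 0.05. In other genes the interaction lay near 0, at −0.17 ± 0.52 for Ndufaf1, 0.17 ± 0.82 for Cox7a1, 0.02 ± 0.44 for Uqcrq and 0.04 ± 0.52 for Ndufb4b, values whose standard errors leave room for a sizeable difference. Of complex II, Sdhb was at −0.42 ± 0.30, Sdhc at 0.07 ± 0.51, Sdhd at 0.04 ± 0.47 and Sdha at 0.01 ± 0.40. Cycs was at −1.35 ± 0.35 (limma adjusted p = 0.1) on the row of another chromosome. On the row of the gene's own chromosome the interaction was smaller in size. Of the isoforms, Cox6b2 was at −0.85 ± 0.21 (limma adjusted p = 0.082), and Cox4i2, Cox6a2, Cox7b2, Cox8b, Cox8c and Ndufa4l2 lay between −0.37 and 0.42 without a call. The count was 2 without any 1 non-manipulated or Trim21 mRNA pool, 5 without replicate 2 of the full treatment, and 38 and 30 without antibody alone replicate 1 and 2.

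**Figure D5:**
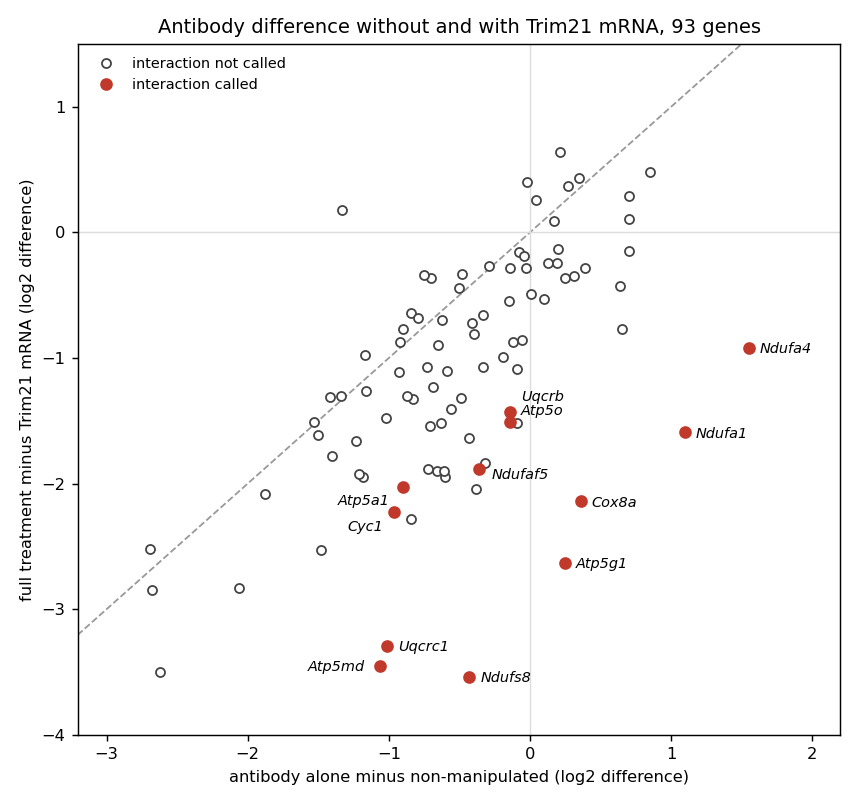
Log2 difference of each of the 93 genes for the full treatment minus Trim21 mRNA (vertical) against antibody alone minus non-manipulated (horizontal), with the 12 genes called for the interaction in red and named. The dashed line marks equal differences, and all 12 lie below it, the furthest being Ndufs8 at −3.54 and −0.43.

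Set directly against antibody alone, the full treatment had 31 members lower and 1 higher, beside 14.9% of all genes called in either direction, 10.5% lower and 4.37% higher. Among genes with a level of at least 6, 24.3% were called lower, against 31 of 84 members. The members' median was −0.67. This comparison shares the full treatment pools with the first. The lowest were Atp5g1 (−3.43 ± 0.16), Ndufs8 (−3.29 ± 0.15), Cox8a (−2.92 ± 0.24), Atp5md (−2.53 ± 0.22), Ndufa4 (−2.42 ± 0.23), Ndufa1 (−2.33 ± 0.24), Ndufc2 (−2.31 ± 0.24) and Uqcrc1 (−2.27 ± 0.29). The member that rose was Ndufb6, an accessory subunit of complex I, which read 13.96 and 14.99 in the full treatment, 11.81 and 12.48 with antibody alone, 14.25 and 14.33 with Trim21 mRNA against 13.54 and 13.41 in non-manipulated pools (2.33 ± 0.36, limma adjusted p = 0.0065). Only its antibody alone pools stood apart. Near 0 and not called were Ndufv1 (0.08), Ndufs7 (−0.04), Atp5j2 (−0.08) and Cox4i2 (−0.01). After quantile normalization the calls were 24 lower and 7 higher, the added risers being Ndufa10, Uqcrq, Cox5b, Cox7a2l, Cox8b and Atp5k at 0.56 to 1.69. The count was 18 and 20 without replicate 1 and 2 of the full treatment, and 65 without antibody alone replicate 1.

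Against non-manipulated embryos, the full treatment had 59 members lower and 1 higher (median −1.19), beside 31.7% of all genes called in either direction, 16.6% lower and 15.1% higher. Of genes with a level of at least 6, 37.9% were called lower, against 56 of 84 members (66.7%). The full treatment pools are again the same. Among called members Uqcr10 was lowest at −4.04 ± 0.75, followed by Ndufs8 (−3.71 ± 0.15), Atp5md (−3.59 ± 0.22), Uqcrc1 (−3.28 ± 0.29), Ndufaf1 (−3.23 ± 0.37) and Atp5g1 (−3.17 ± 0.16), while Ndufa9 at −3.52 ± 1.12 was not called. The riser was Cox8b, from 3.77 and 3.82 to 4.63 and 4.76 (0.90 ± 0.20, limma adjusted p = 0.017), a muscle isoform near the bottom of the array's range. By complex 23 of 35, 2 of 4, 7 of 9, 9 of 20 and 11 of 16 genes of complexes I to V fell, with medians of −1.08, −1.03, −1.76, −0.65 and −1.25 (−0.71, −0.66, −1.27, −0.26 and −0.56 after quantile normalization). Quantile normalization changed the split to 35 lower and 8 higher. The count was 29 and 31 without non-manipulated replicate 1 and 2 and 38 without replicate 2 of the full treatment.

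Trim21 mRNA by itself left these genes uncalled. Against non-manipulated embryos 0 of the 93 were called by limma, beside 0.00326% of all genes, and 6 of the 93 had an unadjusted p under 0.05. The members ranged from −0.89 to 0.92 with a median of −0.10. The furthest were Ndufc2, which read 7.73 and 8.27 in non-manipulated pools and 7.10 and 7.13 with Trim21 mRNA (−0.89 ± 0.24, limma adjusted p = 0.57), and Uqcrq (0.92 ± 0.31, limma adjusted p = 0.66). Ndufc2 pools did not overlap. Cox5b (0.80 ± 0.22), Ndufaf4 (−0.69 ± 0.24) and Atp5g1 (−0.55 ± 0.16) had the smallest p of their classes. The 4 complex II genes differed by −0.68 (Sdhd), −0.59 (Sdha), −0.39 (Sdhb) and −0.25 (Sdhc), none called. With only these 2 groups in the fit, 8 members were called lower and 6 higher, beside 8.21% of all genes called in that fit.

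The subunits encoded by the mitochondrial genome, which join the nuclear ones in complexes I, III, IV and V, were measured in part. Of 13 such genes 5 had a row of their own, and 0 of these was called by limma in the full treatment against Trim21 mRNA (median 0.03), nor did any have an unadjusted p under 0.05. COX1, the catalytic subunit of complex IV, read 18.86 and 18.98 with Trim21 mRNA against 19.07 and 18.84 in the full treatment (0.03 ± 0.16), close to the highest values the arrays gave. COX2 is not near that limit and read 14.48 and 14.17 against 14.39 and 13.97 (−0.14 ± 0.20), with overlapping pools. ND3 differed by 0.11 ± 0.16, ND2 by −0.20 ± 0.15 and ND6 by 0.89 ± 0.71. In these pools ND3 read 18.25 to 18.52 and ND2 18.06 to 18.36, also near the array maxima, which were 19.09 and 18.88 in the full treatment. With antibody alone ND2, a subunit of complex I, fell from 18.09 and 18.00 to 16.38 and 16.19 (−1.76 ± 0.15, limma adjusted p = 0.0029), the 1 call among the 5. After cyclic loess 4 of the 5 were called higher in the full treatment, and after quantile normalization 1.

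Regulators of respiratory genes were mixed. Of 15 measured (of 16 listed) 8 fell (53.3%, beside 14.5% of all genes and 33.3% of those with a level of at least 6), 7 were not called and 0 rose in the full treatment against Trim21 mRNA, with a median of −1.24 (7 and 1 after quantile normalization). Nrf1, the factor behind the first motif above, read 10.07 in both Trim21 mRNA pools and 8.30 and 8.20 in the full treatment (−1.82 ± 0.15, limma adjusted p = 0.00028), and 8.76 and 8.94 with antibody alone against 10.26 and 10.11 (−1.33 ± 0.15). Gabpa, an ETS factor, differed by −1.74 ± 0.17 (called) in the first comparison and by −0.31 ± 0.17 (not called) with antibody alone. Pprc1, a coactivator, differed by −2.97 ± 0.16 and −2.75 ± 0.16 in the 2 comparisons, both called. The mitochondrial RNA polymerase Polrmt differed by −2.61 ± 0.17 and −1.98 ± 0.17, both called, and its factor Tfb2m by −2.62 ± 0.20 (called) and −0.68 ± 0.20 (not called). Tfam, Tfb1m, Polg and Polg2 were not called in either. In the first comparison the coactivator genes Ppargc1a and Ppargc1b lay above 0 at 0.56 and 0.46, as did Tfb1m at 0.39 and Polg at 0.09, none called.

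Of 39 measured assembly factors outside the symbol rule (of 43 listed) 12 fell and 2 rose in the full treatment against Trim21 mRNA (median −0.39). The 30.8% that fell is near the 33.3% called lower among all genes with a level of at least 6. Uqcc3, needed for complex III, read 11.91 and 12.00 against 7.71 and 7.86 (−4.17 ± 0.15, limma adjusted p = 6.5e-05), and the complex I factor Ecsit read 11.04 and 11.03 against 7.52 and 7.71 (−3.42 ± 0.49). The 2 risers were Cox10, which makes heme for complex IV (1.57 ± 0.31), and the complex II factor Sdhaf4 (1.59 ± 0.29), which also rose with antibody alone (1.90 ± 0.29). Of 21 measured genes of protein import and the outer membrane (of 25 listed) 14 fell (66.7%) and 0 rose (median −1.88, and 12 and 2 after quantile normalization), led by Timm13 (−4.93 ± 0.64) and Timm17a, a channel subunit of the inner membrane, which read 14.69 and 14.50 against 10.51 and 9.76 (−4.46 ± 0.27). Of 8 measured carriers and uncoupling proteins (of 9 listed) 2 fell and 1 rose (median −0.02): the phosphate carrier Slc25a3 (−1.60 ± 0.16) and the ADP/ATP carrier Slc25a5 (−1.12 ± 0.20) fell, and Slc25a27 rose (0.73 ± 0.19). Slc25a5 rose with antibody alone, from 11.62 and 11.69 to 12.64 and 12.93 (1.13 ± 0.20, limma adjusted p = 0.019).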

How the data were processed

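Pools of embryos were measured on Affymetrix arrays after labelling with a GeneChip WT Pico kit, per the labels. The authors deposited log2 values per transcript cluster, made with Affymetrix Expression Console per the submitters' processing notes. The sources used here do not give the summarisation method or the array's genome build. The non-manipulated replicate 1 column was treated as a score, since 1 of its deposited cells is a whole number far above any log2 level. That row was left out and the rest was read as log2. Of 65955 rows used, 31257 named a single gene, and symbols were updated through RefSeq. The row with the highest mean stood for a gene, which left 30700 genes. The rows used for Cycs, Atp5g2 and Atp5l lie on another chromosome than the gene, and the Ndufs6 row carries a second gene identifier.

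The test was limma's moderated two-sided test (version 3.58.1, under R 4.3.3), from 1 fit of 4 group means over all genes, with Benjamini-Hochberg adjustment within each of 6 comparisons and a threshold of 0.05. This leaves 4 residual and 6.83 total degrees of freedom and a median SE of 0.219. The number of arrays limits the precision. On simulated data for the full treatment against Trim21 mRNA, over 30700 genes, the test recovered 67 of 100 genes changed by 2 log2 units and 20 of 100 changed by 1. It also called 6 unchanged genes. Only these sets of 100 genes were changed, with 1 spread for all groups, while 23.2% of all genes were called in the data. The adjustment depends on that share, so how far the recovery holds for the data was not tested. Medians of gene lists carry no test. Groups of 2 pools give no exact test that could reach the threshold.

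The members, gene lists and alternatives were chosen with earlier results of these data known. Per comparison the text names, in each class of at least 5 genes, the 3 called members with the smallest p and separate pools (5 in complex I, with no condition on pools for the interaction), called members against the majority, the member nearest to 0 and, where none was called, the smallest p. It also names complex II, Cycs, Cyc1 and the isoforms. Other genes were chosen once their values were known. The alternatives were median centring, quantile normalization, cyclic loess, a filter on a mean level of at least 6, the mean of a gene's rows, a fit of the compared groups, each array left out and a block on the replicate number. Rows on the gene's own chromosome and a fit without the antibody alone arrays were added after the data were seen. Motifs were searched in RefSeq promoter windows (GRCm38.p6). Sperm, oviduct and blood marker lists were read too: 1 of 9 sperm genes fell and 1 rose, 1 of 5 oviduct genes fell and 0 of 4 blood genes were called (1 at an unadjusted p under 0.05) in the full treatment against Trim21 mRNA by limma. In that comparison 9 of 12 markers of the 2-cell embryo and 6 of 12 of oocyte and zygote were called in either direction. So was 1 of 11 cumulus and granulosa markers, beside 23.2% of all genes.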

Additional observations from a re-analysis of the deposited data

Results flagged for a closer look

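For 12 genes the antibody difference with Trim21 mRNA differed from that without it, by limma's interaction test at an adjusted p under 0.05. All 12 values were negative, beside 3.46% of all genes called negative and 8.24% of those with a level of at least 6. From a level of 10 upwards, 6 of 22 members and 758 of 3429 genes were called in either direction. In complex I the called members were Ndufs8 (−3.12) and Ndufa1 (−2.69), and in complex III Uqcrc1 (−2.28), Uqcrb (−1.28) and Cyc1 (−1.26). In complex IV they were Cox8a (−2.50) and Ndufa4 (−2.48), in ATP synthase Atp5g1 (−2.88), Atp5md (−2.39), Atp5o (−1.37) and Atp5a1 (−1.13), and among the assembly factors Ndufaf5 (−1.51). Each value is the antibody difference with Trim21 mRNA minus the one without. Ndufs8 and Atp5g1 kept the call in each of the 8 fits that left out 1 array, and the other 10 lost it in at least 1. Since every group has its own day, a difference between groups and a difference between days cannot be told apart.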

How the results depend on the processing

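The direction of the members' median was the same in every alternative run for the full treatment set against Trim21 mRNA, antibody alone and non-manipulated embryos, for antibody alone against non-manipulated embryos and for the interaction, while its size and the counts of calls moved. Under quantile normalization the medians were −0.66, −0.46 and −0.66 for the full treatment set against Trim21 mRNA, antibody alone and non-manipulated embryos, and −0.23 for antibody alone against non-manipulated embryos, where 8 members were called. Under cyclic loess they were −0.66, −0.41, −0.63 and −0.24, and −0.35 for the interaction. Of 30 medians by complex, 17 moved by over the spread between pools under quantile normalization and 18 under cyclic loess. Median centring gave −1.28 and −1.44 for that treatment against Trim21 mRNA and non-manipulated embryos. With only the compared groups in the fit, 0 members were called by limma for antibody alone, 10 for the full treatment set against antibody alone and 14 for Trim21 mRNA against non-manipulated embryos. Cox6b2 reversed in the full treatment, to 0.67 (quantile) and 0.63 (loess) against Trim21 mRNA and to 0.83 and 0.79 against non-manipulated embryos.

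Leaving out 1 array gave 30 to 71 called members for the full treatment against Trim21 mRNA, 0 to 57 for antibody alone (median −0.66 to −0.26), 18 to 65 when set against antibody alone (median −0.90 to −0.36), 29 to 77 against non-manipulated embryos and 2 to 38 for the interaction (median −0.71 to −0.27). Without antibody alone replicate 1 the complex II median with antibody alone was 0.00 (−0.68 without replicate 2), and Uqcrc2 in the full treatment minus antibody alone was 0.48 without replicate 2 and −1.06 without replicate 1. Arrays with the same replicate number did not deviate together (correlations of −0.191 to 0.143). With the replicate block 11 members were called for antibody alone and 7 for the interaction, and the block moved no other count of members by over 1.5 times. The 2 pools a group, the shared day and the absence of a control antibody limit every comparison.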
